A study of Mus musculus with 23 samples.

Results

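The levels of 10 genes for secreted factors that are studied in cancer cachexia and systemic inflammation were followed through the primary tumor and the livers of mice with and without a tumor. The genes were *Il6*, *Lif*, *Osm*, *Il11*, *Gdf15*, *Inhba*, *Pthlh*, *Tnf*, *Il1a*, and *Il1b*, taken by name from the 48897 genes of the expression table. All 10 were found in the table. The libraries came from male BALB/c mice that were 4 to 6 weeks old when divided into the sham-operated and tumor-bearing groups. In 9 mice, cells of CT26, a mouse colon carcinoma line, were injected into the wall of the cecum, and each mouse gave a primary tumor and a pre-metastatic liver after 3 weeks. In 5 sham-operated mice, serum-free RPMI medium was injected in place of cells, and each gave a control liver. Every group was poly(A) RNA of whole tissue. The tumors all grew from the same cell line, and a tumor library holds RNA of its host cells as well as of CT26 cells. The comparisons asked in which tissue each factor's transcript was found, and whether its level in the liver changed in mice with a tumor.

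Il6, Lif, Osm, and Il11 belong to the IL-6 family, whose members bind a receptor of their own and signal through the shared chain gp130 (*Il6st*) to STAT3, a route by which IL-6 drives the acute-phase response of hepatocytes. TNF and the IL-1 pair act through their receptors on NF-kB, and IL-1 beta needs cleavage by caspase-1 whereas IL-1 alpha does not. GDF15 is a stress hormone that acts on appetite through a receptor in the hindbrain, activin A is a dimer of the *Inhba* product that binds activin receptors in muscle and elsewhere, and the parathyroid hormone-related protein of *Pthlh* is the classical hormone of cancer hypercalcemia. Transcript levels say nothing on secretion or on the plasma level of any of these proteins.

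The libraries held between 44587556 and 79773163 counts. The tissue labels held: the summed level of 7 hepatocyte markers was 52295 to 63460 RPKM (counts scaled to gene length in kilobases and to the library total) in control liver, 35782 to 74404 RPKM in pre-metastatic liver, and 7.03 to 298 RPKM in primary tumor. The tumors had 641 to 1059 RPKM of 8 fibroblast markers and only 42.6 to 118 RPKM of 7 epithelial markers, of which *Krt20* made up most (mean 65.4 RPKM) and *Epcam* little (mean 0.305 RPKM). In the liver a few hepatocyte transcripts take up much of the library, so that the choice of scaling matters between tumor and liver. Log2 fold changes below use TMM factors, which balance the bulk of the genes, while RPKM uses library totals. Against TMM, totals raised the median log2 fold change of all genes by 1.18 in primary tumor against pre-metastatic liver and by 1.08 in primary tumor against control liver, and moved it by -0.0792 between the livers. Counts of genes called with library totals carry this shift. The shares of all genes given beside list counts are those with TMM and are no measure for counts with library totals. Libraries were also divided by the sign of a clock-gene index into an early (negative) and a late (positive) phase. The late phase held tumor-bearing mice M1, M2, M10, and M12, in liver and tumor alike, and C7 of the controls. The index of the early-phase pre-metastatic livers ran from -2.35 in mouse M4 to -0.102 in mouse M7, near the border between phases. The phases are names for this division, since no sample label gives a time of collection. All levels are per unit of RNA and not per organ, and in whole tissue fewer cells of a type and less RNA per cell cannot be told apart.

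Promoter sequence is shown for 5 genes: 3 of the IL-6 family that were far higher in tumor than in liver, and the neighbors *Il1a* and *Il1b*, which went opposite ways. The RefSeq promoter table (GRCm38.p6, the same assembly as the mm10 of the files) had an entry for 9 of the 10 genes, *Osm* not among them. Each line gives the 250 bases upstream of a RefSeq start site, 5′ to 3′ on the strand of the gene. Capitals mark matches, on either strand, to GGNNTTTCC (NF-kB type), TGACTCA (AP-1 type), or TATAAA (the box bound by TBP). For *Il11*, the entry with a match is shown.
Il6, chr5:30012864-30013113, plus strand: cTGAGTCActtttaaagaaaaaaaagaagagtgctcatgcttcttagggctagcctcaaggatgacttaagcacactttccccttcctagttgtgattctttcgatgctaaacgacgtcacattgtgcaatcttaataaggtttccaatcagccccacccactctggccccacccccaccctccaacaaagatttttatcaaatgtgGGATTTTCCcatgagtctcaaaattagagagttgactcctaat
Lif, chr11:4257318-4257567, plus strand: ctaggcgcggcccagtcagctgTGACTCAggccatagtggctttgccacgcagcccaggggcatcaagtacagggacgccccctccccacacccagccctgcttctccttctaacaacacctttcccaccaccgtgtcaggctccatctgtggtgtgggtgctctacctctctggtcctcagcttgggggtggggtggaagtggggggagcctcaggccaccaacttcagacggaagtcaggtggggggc
Il11, chr7:4778142-4778391, minus strand: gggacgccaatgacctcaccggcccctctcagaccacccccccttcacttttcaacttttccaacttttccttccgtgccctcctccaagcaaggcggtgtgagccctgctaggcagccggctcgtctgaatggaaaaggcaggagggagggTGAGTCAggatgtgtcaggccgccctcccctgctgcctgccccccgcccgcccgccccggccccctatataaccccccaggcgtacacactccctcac
Il1a, chr2:129309973-129310222, minus strand: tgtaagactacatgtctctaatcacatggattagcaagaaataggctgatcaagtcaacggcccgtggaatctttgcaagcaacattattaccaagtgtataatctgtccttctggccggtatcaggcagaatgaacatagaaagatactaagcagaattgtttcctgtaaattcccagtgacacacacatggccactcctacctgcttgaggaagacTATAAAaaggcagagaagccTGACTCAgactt
Il1b, chr2:129371140-129371389, minus strand: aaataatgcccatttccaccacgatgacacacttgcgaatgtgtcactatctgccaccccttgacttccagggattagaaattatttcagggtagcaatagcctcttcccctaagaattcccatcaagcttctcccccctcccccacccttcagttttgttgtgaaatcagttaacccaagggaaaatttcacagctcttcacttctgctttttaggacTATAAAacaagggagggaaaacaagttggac

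The 9 genes with an entry had 11 promoters in all. A gene is counted below if any of its promoters held a match, while the percentages are of single promoters. The AP-1 letters stood in 4 of the 9 genes (*Il6*, *Lif*, *Il11*, and *Il1a*) and in 4.46% of 32851 promoters of this length. The NF-kB match GGATTTTCC of *Il6* lay at positions -43 to -35, counted back from the start site, and 4.93% of all promoters held such a match. TATAAA was found in 4 of the 9 (*Il1a*, *Il1b*, *Inhba*, and *Tnf*) and in 12.4% of all promoters. TTCNNNGAA (STAT type), TGACGTCA (CRE), and TGATGNAAT (ATF4 composite type) were in 0 of the 9, against 7.02%, 1.55%, and 0.816% of all promoters. No 2 matches overlapped. These matches describe letters in these windows and were not set against binding data. *Il1a* and *Il1b*, whose start sites are neighbors on chromosome 2, both held TATAAA, and *Il1a* alone of the pair held the AP-1 letters, at positions -12 to -6.

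**Figure D1:**
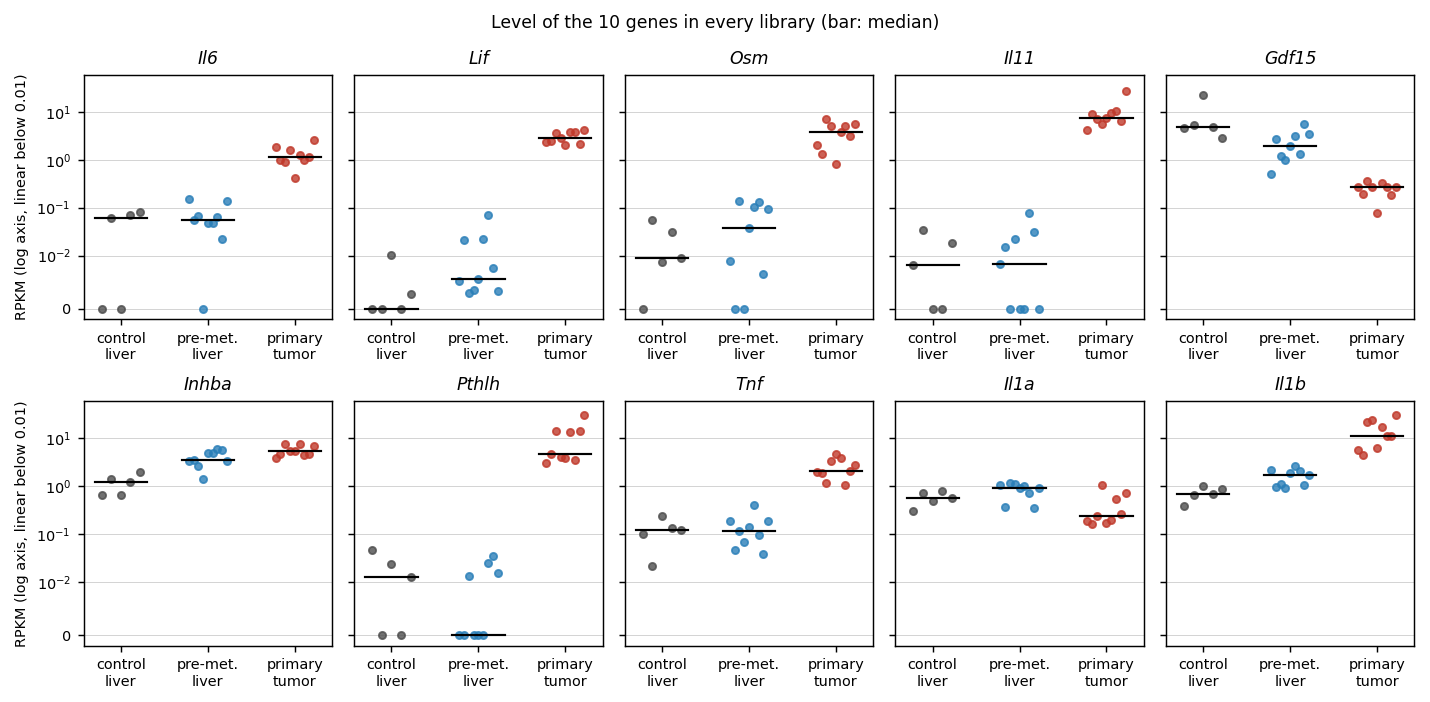
RPKM of each of the 10 genes in every library (points) with the group median (bar), for 5 control livers, 9 pre-metastatic livers, and 9 primary tumors, on a log axis that is linear below 0.01. Tumors lay above all livers for *Il6*, *Lif*, *Osm*, *Il11*, *Pthlh*, *Tnf*, and *Il1b* and below all livers for *Gdf15*.

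In primary tumor against pre-metastatic liver of the same mice, 7 of the 10 genes were higher in tumor and 3 lower. Among the 3 was *Inhba*, whose direction turned with the scaling. The edgeR quasi-likelihood test had no term for the mouse and was Benjamini-Hochberg adjusted over 17827 genes. Since 84.3% of all tested genes passed this test, 43.8% higher and 40.5% lower, passing it did not set the 10 genes apart from the rest. The groups did not overlap in RPKM for 8 of the 10 genes, against 70.2% of all genes tested. *Il11* and *Pthlh* had 10 counts in no pre-metastatic liver, *Il6* and *Lif* in 1, *Osm* in 3, and *Tnf* in 5 of 9. These 6 therefore needed the tumors to pass the filter on low counts. *Il11* and *Pthlh* passed through the tumors alone, so that their direction was given in advance, and *Il6* and *Lif* nearly so. The differences of all 6 are given as values.

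*Il11*, an IL-6 family cytokine of stromal and epithelial repair, had the largest log2 fold change of the family against pre-metastatic liver. In primary tumor it lay between 4.10 RPKM (mouse M10) and 27.5 RPKM (mouse M8), with a median of 7.29 RPKM. In pre-metastatic liver it lay between 0 and 0.0790 RPKM (0 to 9 counts, 4 libraries at 0 counts), and in control liver between 0 and 0.0347 RPKM. No tumor came near the range of either liver group. Summed over libraries, the share of counts was 508 times higher in tumor than in pre-metastatic liver (exact 95% counting interval 325 to 844), and the log2 fold change was 7.80 ± 0.58 (SE). *Il11* (chr7:4772378-4782857, minus strand) overlaps *Tmem190* on the other strand, which had 49 to 114 counts in the tumors where *Il11* had 587 to 2914.

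*Lif*, leukemia inhibitory factor (chr11:4257568-4272514, plus strand), was the steadiest of the family. Its level in tumor ran from 2.07 to 4.21 RPKM with a median of 2.87 RPKM, so that the highest tumor had 2.03 times the level of the lowest. In pre-metastatic liver it ran from 0.00286 to 0.0707 RPKM, with a median of 0.00553 RPKM. Control livers had 0 counts in 3 of 5 libraries and at most 0.0102 RPKM. The groups were wide apart. *Lif* was higher in tumor than in pre-metastatic liver by 6.34 ± 0.48 on the log2 scale and higher than in control liver by 8.97 ± 0.50, a comparison it entered only through the tumors.

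*Osm*, oncostatin M, is a cytokine of activated neutrophils and macrophages and lies beside *Lif* (chr11:4236785-4241026, plus strand). It ranged from 0.806 RPKM (mouse M4) to 7.01 RPKM (mouse M1) in tumor, with a median of 3.74 RPKM. In pre-metastatic liver the range was 0 to 0.137 RPKM with a median of 0.0379 RPKM. The lowest tumor still stood above the highest liver, although tumors differed from each other by 8.69 times. The log2 fold change was 4.86 ± 0.62.

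*Il6* itself (chr5:30013114-30019975, plus strand) was the lowest of the family in tumor. It lay between 0.407 and 2.61 RPKM with a median of 1.15 RPKM, or 26 to 156 counts. In pre-metastatic liver it lay between 0 and 0.150 RPKM (0 to 10 counts), and in control liver between 0 and 0.0798 RPKM (0 to 5 counts). Every tumor was above every liver. Its log2 fold change against pre-metastatic liver was 3.12 ± 0.43, and the summed share of counts was 20.7 times higher (14.9 to 29.6).

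*Pthlh* (chr6:147252109-147264013, minus strand) was absent or nearly so from liver and spread widely among tumors. Its values in tumor were 3.02 to 30.7 RPKM with a median of 4.71 RPKM, and they fell into 5 tumors from 3.02 to 4.71 RPKM and 4 (mice M1, M5, M7, and M8) from 13.4 to 30.7 RPKM. No pre-metastatic liver had more than 4 counts, and 5 of 9 had 0, which allows up to 3 counts each. The summed share of counts was 915 times higher in tumor (464 to 2120), and the log2 fold change was 8.58 ± 0.72.

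*Tnf* (chr17:35199367-35202007, minus strand) had 1.07 to 4.74 RPKM in tumor with a median of 2.08 RPKM, and was highest in mouse M4, where *Osm* and *Il6* were lowest. In pre-metastatic liver it had 0.0379 to 0.392 RPKM with a median of 0.113 RPKM. The groups did not overlap. *Tnf* was higher in tumor by 3.02 ± 0.39 on the log2 scale.

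*Il1b* (chr2:129363842-129371170, minus strand) had the highest mean of the 10 genes in tumor, 14.7 ± 9.32 RPKM (SD, n = 9). It ranged from 4.39 RPKM (mouse M12) to 31.0 RPKM (mouse M8) with a median of 11.2 RPKM. Pre-metastatic liver had 0.915 to 2.68 RPKM with a median of 1.68 RPKM, below every tumor. The log2 fold change was 2.01 ± 0.35 (adjusted *p* = 2.74e-05 with edgeR), smaller than that of the other 6 genes that were higher in tumor.

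*Il1a* (chr2:129299609-129310877, minus strand) went the other way from its neighbor. Its level in pre-metastatic liver was 0.354 to 1.17 RPKM with a median of 0.927 RPKM. In tumor it was 0.164 to 1.07 RPKM with a median of 0.236 RPKM, and mice M2, M6, and M8 had the highest values. The groups overlapped, but *Il1a* was lower in the tumor than in the liver of the same mouse in 9 of 9 mice (exact sign-flip test of log2(RPKM + 1), *p* = 0.00391, two-sided, the smallest that 9 pairs allow). The edgeR log2 fold change was -2.28 ± 0.38 (adjusted *p* = 1.52e-05). *Il1a* overlaps *Gm14023* on the other strand, which had 6 to 49 counts over all libraries against 38 to 285 for *Il1a*.

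*Gdf15* (chr8:70629393-70632470, minus strand) was a liver transcript in these mice. Tumors had 0.0763 to 0.362 RPKM with a median of 0.272 RPKM, from only 6 to 32 counts. Pre-metastatic livers had 0.512 to 5.54 RPKM with a median of 1.97 RPKM, all above the tumors, and control livers had 2.82, 4.65, 4.71, 5.33, and 22.2 RPKM. *Gdf15* was lower in tumor than in pre-metastatic liver by -4.40 ± 0.43 on the log2 scale (adjusted *p* = 8.30e-09 with edgeR), and lower in 9 of 9 mice. The genes of the stress pathways known to induce *Gdf15* did not share this direction. With TMM 10 of 11 were higher in tumor and 0 lower, against 43.8% and 40.5% of all genes. The median log2 fold change was 1.49, against 0.0890 for all genes. With library totals 10 were again higher and 0 lower, where the median was 2.72 against 1.27 for all genes. Of the list, *Asns* (asparagine synthetase) was at 76.9 ± 14.6 RPKM in tumor and 1.57 ± 1.02 RPKM in pre-metastatic liver, and *Nupr1* at 114 ± 22.2 and 2.62 ± 1.39 RPKM.

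*Inhba* (chr13:16007743-16027723, plus strand) was found in both tissues. It had 3.84 to 7.66 RPKM in tumor with a median of 5.50 RPKM, and 1.43 to 5.86 RPKM in pre-metastatic liver with a median of 3.42 RPKM. The ranges overlapped, and the tumor had the higher RPKM in 7 of 9 mice (exact sign-flip *p* = 0.0664). Its direction depended on the scaling: the log2 fold change was -0.69 ± 0.23 with TMM (adjusted *p* = 0.00902 with edgeR) and 0.51 ± 0.22 with library totals (adjusted *p* = 0.0338 with edgeR), so no direction can be given between tumor and pre-metastatic liver. With TMM it was -0.20 ± 0.32 among the late-phase mice (adjusted *p* = 0.591 with edgeR) and -0.98 ± 0.21 among the early-phase mice (adjusted *p* = 9.32e-04 with edgeR).

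Against control liver, 8 of the 10 genes were higher in primary tumor and 2 lower (*Gdf15* and *Il1a*), in a comparison where 82.3% of 19320 genes passed, 44.2% higher and 38.1% lower. The groups did not overlap in RPKM for 9 of the 10 genes, against 73.5% of all genes, and the exception was *Il1a*. *Il6*, *Lif*, *Osm*, *Il11*, and *Pthlh* had 10 counts in no control liver and entered the comparison through the tumors alone, so that their direction was given in advance, and *Tnf*, with 10 counts in 4 of 5 control livers, also needed the tumors to enter. *Inhba* was higher in tumor than in control liver by 1.21 ± 0.25 (adjusted *p* = 3.77e-04 with edgeR), and with library totals by 2.27 ± 0.27. *Il1a* was lower by -1.63 ± 0.45 with TMM (adjusted *p* = 0.00311 with edgeR), but with library totals the difference was -0.55 ± 0.46 (adjusted *p* = 0.265 with edgeR).

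**Figure D2:**
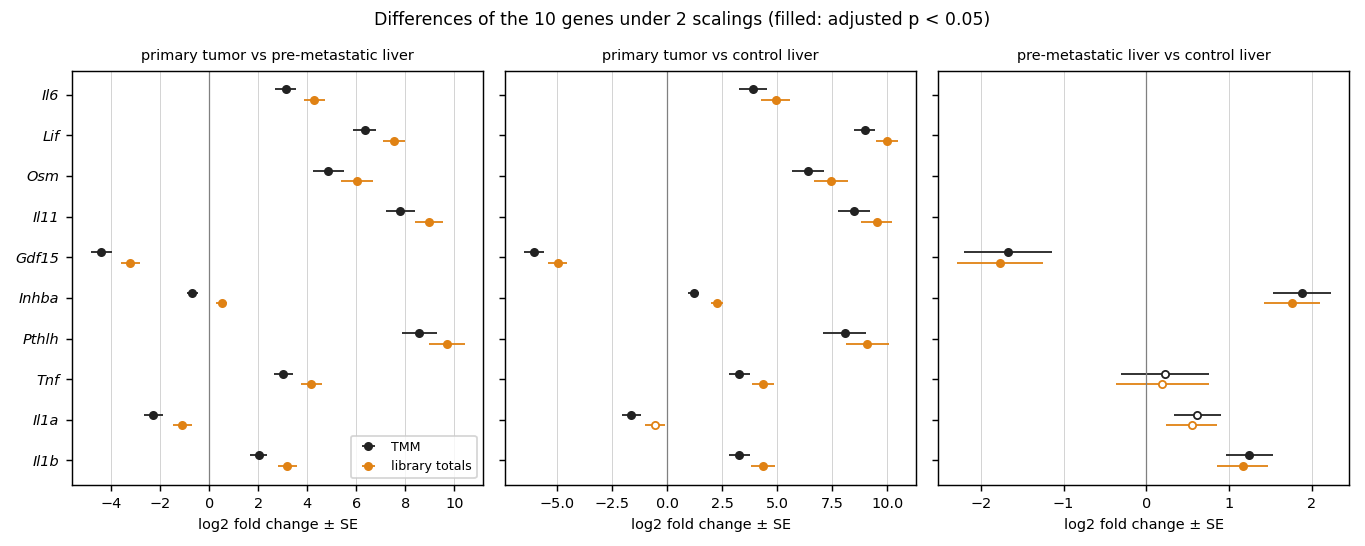
Log2 fold change with its SE (horizontal bars) of each gene in the 3 comparisons, with TMM factors (black) and with library totals (orange), where a filled point has an adjusted p under 0.05. *Inhba* changes sign with the scaling in primary tumor against pre-metastatic liver, from -0.69 to 0.51, while *Il1a* against control liver keeps its sign and loses its call, and 5 genes have no point between the livers.

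The 10 transcripts were ordered differently in each tissue, on the length-corrected RPKM scale. In primary tumor the means ran from *Il1b* (14.7 RPKM) through *Pthlh* (10.1), *Il11* (9.68), *Inhba* (5.62), *Osm* (3.75), *Lif* (3.05), *Tnf* (2.54), and *Il6* (1.30) to *Il1a* (0.392) and *Gdf15* (0.249). In pre-metastatic liver *Inhba* (3.95 RPKM), *Gdf15* (2.32), *Il1b* (1.61), and *Il1a* (0.842) led, and the other 6 had means of at most 0.141 RPKM, that of *Tnf*. In both tissues the ranges of each gene and its neighbor in the order overlapped. In control liver *Gdf15* (7.94 RPKM) stood first with a lowest value of 2.82 RPKM, above the highest *Inhba* value of 1.93 RPKM.

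Between the livers, only 5 of the 10 genes had enough counts for the fit, namely *Gdf15*, *Inhba*, *Tnf*, *Il1a*, and *Il1b*. Among the 16987 genes tested, 31.0% passed, 17.7% higher and 13.3% lower in pre-metastatic liver. Of the 5, *Inhba* and *Il1b* rose and *Gdf15* fell. In none of the 5 were the groups without overlap, against 10.9% of all genes.

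*Inhba* rose in the pre-metastatic liver. The control livers had 0.644, 0.655, 1.19, 1.41, and 1.93 RPKM, and the pre-metastatic livers 1.43 to 5.86 RPKM with a median of 3.42 RPKM. The overlap came from the livers of 2 late-phase mice, since mouse M2 at 1.43 RPKM was the lowest of the tumor-bearing mice and control mouse C7 at 1.93 RPKM was the highest of the controls. *Inhba* was higher by 1.88 ± 0.35 on the log2 scale (adjusted *p* = 0.00108 with edgeR, and exact rank-sum *p* = 0.00200, two-sided). Within the early phase, with 5 and 4 livers, the difference was 2.43 ± 0.28 (adjusted *p* = 6.02e-04 with edgeR). The early-phase pre-metastatic livers had a mean of 4.94 RPKM and the 4 late-phase livers 2.71 RPKM, and this difference between phases was not tested.

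*Il1b* rose as well. The control livers had 0.382 to 1.02 RPKM with a median of 0.688 RPKM, and the pre-metastatic livers 0.915 to 2.68 RPKM with a median of 1.68 RPKM. The lowest pre-metastatic livers, of mice M2 and M12, lay within the control range. The log2 fold change was 1.24 ± 0.28 (adjusted *p* = 0.00429 with edgeR, and exact rank-sum *p* = 0.00400). *Il1a* had a mean of 0.576 RPKM over the control livers (SD 0.198, n = 5) and of 0.842 RPKM over the pre-metastatic livers (SD 0.301, n = 9), a difference of 0.62 ± 0.28 on the log2 scale that did not pass (adjusted *p* = 0.106 with edgeR), although it did without mouse M7 (adjusted *p* = 0.0393 with edgeR). *Tnf* differed by 0.22 ± 0.53 (adjusted *p* = 0.783 with edgeR) and its sign was not settled, being -0.05 without control mouse C4 and -0.07 without mouse M5.

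Marker transcripts of several cell types rose in the same comparison, in which 17.7% of all genes rose and 13.3% fell. Of the leukocyte markers 5 of 6 rose, of the neutrophil markers 5 of 6 tested, of the macrophage and monocyte markers 6 of 8, and of the Kupffer cell markers 4 of 5, with 0 lower in any of these lists. The summed neutrophil markers were at 6.45 to 17.9 RPKM in control liver and 7.26 to 119 RPKM in pre-metastatic liver. The summed macrophage and monocyte markers were at 36.9 to 79.8 and 88.1 to 252 RPKM, and the Kupffer cell markers at 54.7 to 112 and 111 to 334 RPKM. Of the fibroblast markers 3 of 7 tested rose and of the epithelial markers 3 of 7, with 0 lower, and their sums were at 72.0 to 111 and 263 to 300.2 RPKM in control liver and at 50.5 to 171 and 194 to 327 RPKM in pre-metastatic liver. The part of these lists in the rise of *Il1b* and *Inhba* was not tested.

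*Gdf15* fell in the pre-metastatic liver by -1.67 ± 0.53 on the log2 scale (adjusted *p* = 0.0254 with edgeR, and exact rank-sum *p* = 0.0290, which did not pass when adjusted over all genes), but the call rested on control mouse C5, whose 22.2 RPKM stood far above the 2.82 to 5.33 RPKM of the other controls. Without that library the difference was -0.83 (adjusted *p* = 0.214 with edgeR), and within the early phase it was -1.49 ± 0.54 (adjusted *p* = 0.0645 with edgeR). The genes of the stress pathways known to induce *Gdf15* were divided in the same livers. Of 11 such genes 4 rose and 3 fell, against 17.7% and 13.3% of all genes. *Chac1*, a target of the integrated stress response, rose from 0.355 ± 0.195 to 6.59 ± 6.01 RPKM, and *Asns* rose from 0.319 ± 0.282 to 1.57 ± 1.02 RPKM. *Ddit3*, the transcription factor CHOP, fell from 13.9 ± 5.01 to 3.98 ± 4.06 RPKM, and *Cdkn1a*, a p53 target, from 26.0 ± 14.01 to 4.71 ± 3.798 RPKM.

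**Figure D3:**
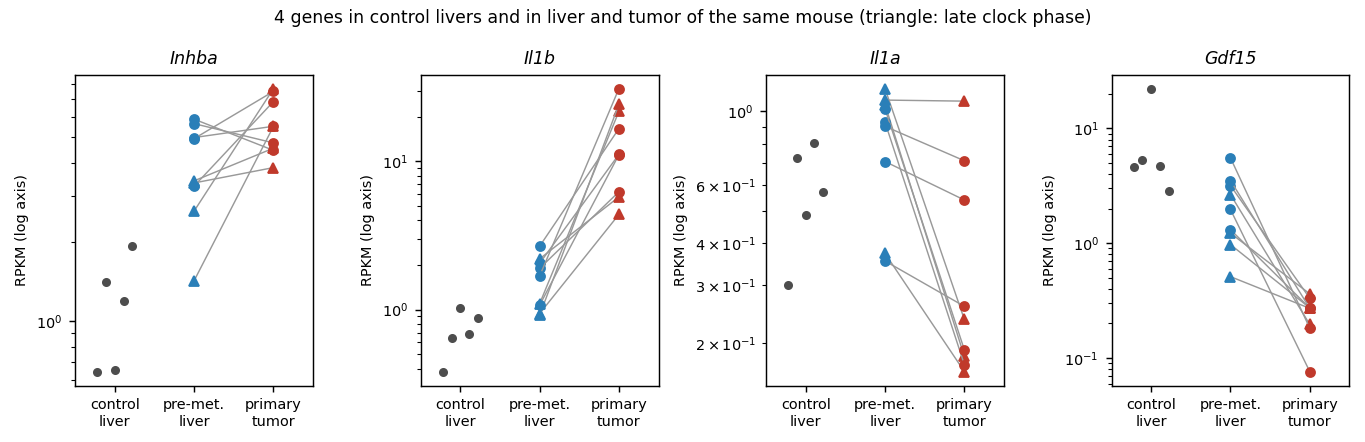
RPKM (log axis) of *Inhba*, *Il1b*, *Il1a*, and *Gdf15* in 5 control livers (grey) and in the pre-metastatic liver (blue) and primary tumor (red) of 9 mice, with a line for each mouse and triangles for the late clock phase. *Il1b* is higher and *Il1a* and *Gdf15* are lower in tumor than in liver in 9 of 9 mice, while *Inhba* is higher in tumor in 7 of 9 on this scale of library totals and lower in the TMM fit.

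The transcripts of *Il6*, *Lif*, *Osm*, *Il11*, and *Pthlh* stayed near the limit of detection in both kinds of liver. *Il6* had 13 counts in all 5 control livers together and 37 in the 9 pre-metastatic livers (exact rank-sum *p* = 0.796). *Osm* had 11 and 53 counts (exact rank-sum *p* = 0.516), *Il11* had 7 and 19 (exact rank-sum *p* = 0.987), and *Pthlh* had 7 and 8 (exact rank-sum *p* = 0.685). None of these 4 passed, and a difference may have been missed at this depth. The summed share of *Osm* was 2.66 times higher in pre-metastatic liver, beyond counting error (exact 95% counting interval 1.38 to 5.66) but not beyond the spread between livers. *Lif* had 5 counts in control livers and 54 in pre-metastatic livers, 26 of them in mouse M6 (exact rank-sum *p* = 0.0285), and its summed share was 5.97 times higher (exact 95% counting interval 2.41 to 19.1). A fit without the filter on low counts gave it an adjusted *p* of 0.110 (edgeR) and a fit of all 23 libraries gave 0.0332 (edgeR).

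Most receptors of these factors were measured in the liver at far higher levels than most of the ligands. The exceptions included *Gfral*, the receptor of GDF15, which had 0 counts in every liver. Its partner *Ret* had means of 0.00259 RPKM in control and 0.00973 RPKM in pre-metastatic liver. In pre-metastatic against control liver, 8 of 13 tested receptors and signal transducers rose and 0 fell, against 17.7% and 13.3% of all genes. The median log2 fold change of the list was 0.53, against 0.01 for all genes. With library totals 6 rose and 1 fell. *Osmr*, the oncostatin M receptor, rose most, from 0.569 ± 0.184 to 2.19 ± 0.924 RPKM, by 2.08 ± 0.36 (adjusted *p* = 6.09e-04 with edgeR). *Lifr* rose from 9.73 ± 2.17 to 20.3 ± 8.63 RPKM, and the shared chain *Il6st* was at 22.3 ± 3.92 and 30.6 ± 7.38 RPKM (adjusted *p* = 0.00856 with edgeR, and 0.0548 with library totals).

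For TNF, *Tnfrsf1b* rose from 5.31 ± 0.847 to 8.18 ± 1.21 RPKM and *Tnfrsf1a* from 39.9 ± 2.65 to 55.0 ± 10.7 RPKM. For IL-1, *Il1r1* rose from 16.2 ± 4.65 to 25.2 ± 6.45 RPKM (adjusted *p* = 0.0354 with edgeR), a call lost when any of 6 single libraries was left out. Of the activin receptors, *Acvr2b* rose from 0.276 ± 0.0643 to 0.468 ± 0.139 RPKM and *Acvr1b* passed at an adjusted *p* of 0.0340 (edgeR), a call lost without any of 4 single libraries, while *Acvr2a* differed by -0.09 ± 0.11. *Il6ra*, which gives hepatocytes their answer to IL-6, was at 17.4 ± 2.84 and 19.0 ± 6.44 RPKM and did not pass (adjusted *p* = 0.513 with edgeR). Nor did *Il11ra1* (-0.37 ± 0.14), *Pth1r* (0.22 ± 0.30), or *Il1rap* (-0.30 ± 0.12).

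Between tumor and pre-metastatic liver, more receptors were called lower in tumor than higher, and how many depended on the scaling. *Lifr* was at 0.659 ± 0.211 RPKM in tumor and 20.3 ± 8.63 RPKM in pre-metastatic liver, where its ligand *Lif* was nearly absent (log2 fold change of *Lifr* -6.10 ± 0.28, adjusted *p* = 1.03e-13 with edgeR). *Pth1r*, the receptor of the *Pthlh* product, was at 0.0843 ± 0.0863 RPKM in tumor and 2.61 ± 1.19 RPKM in pre-metastatic liver. *Tnfrsf1b* was the receptor that was called higher in tumor, at 24.3 ± 3.51 against 8.18 ± 1.21 RPKM. With TMM 11 of 13 were lower in tumor and 1 higher, against 40.5% and 43.8% of all genes. The median log2 fold change of the list was -1.26, against 0.0890 for all genes. With library totals 5 were lower and 3 higher, and the median was -0.0871, against 1.27 for all genes. The list's median thus lay below that of all genes under both scalings, while the number of receptors called lower did not hold.

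Inhibitors and decoys of the same pathways were higher in tumor for 8 of 12 genes and lower for 3 (10 and 2 with library totals). With TMM the median log2 fold change was 1.23 against 0.0890 for all genes, of which 43.8% were higher and 40.5% lower. *Inha*, whose product pairs with the *Inhba* product to form inhibin, was at 3.84 ± 1.10 RPKM in tumor and 0.0380 ± 0.0232 RPKM in pre-metastatic liver. *Fstl3*, which binds and neutralizes activin, was at 14.3 ± 3.65 and 0.159 ± 0.101 RPKM. *Il18bp*, the IL-18 decoy, was lower in tumor by -1.74 ± 0.25, and *Socs3*, the feedback inhibitor of gp130 signaling, was lower by -0.51 ± 0.16 with TMM and higher by 0.69 with library totals. Between the livers 5 of 11 rose and 0 fell, against 17.7% and 13.3% of all genes. Among the 5 were *Il18bp* (1.88 ± 0.17) and *Socs3*, which rose from 9.17 ± 1.85 to 20.7 ± 5.67 RPKM.

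Of 15 genes of processing and release, 10 were higher and 4 lower in tumor than in pre-metastatic liver (13 and 2 with library totals). Over all genes 43.8% were higher and 40.5% lower with TMM. *Casp1*, which cuts IL-1 beta into its active form, was at 76.0 ± 14.6 RPKM in tumor and 2.21 ± 0.763 RPKM in pre-metastatic liver, and *Aim2*, a DNA sensor that activates it, at 4.30 ± 0.827 and 0.183 ± 0.0647 RPKM. The convertases that cut activin and related precursors ran the other way: *Furin* was at 26.8 ± 4.001 and 47.6 ± 10.9 RPKM and *Pcsk6* at 0.363 ± 0.268 and 24.5 ± 5.999 RPKM. Between the livers 8 of 15 rose and 1 fell, against 17.7% and 13.3% of all genes. *Casp1* rose from 0.940 ± 0.245 to 2.21 ± 0.763 RPKM and *Casp4* from 0.445 ± 0.254 to 1.43 ± 0.499 RPKM, and the fall of *Furin* from 70.5 ± 7.99 to 47.6 ± 10.9 RPKM (adjusted *p* = 0.0398 with edgeR) was lost without any of 10 single libraries.

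Relatives of the 10 ligands were found in both tissues. Of 26 listed, 19 were tested between tumor and pre-metastatic liver, where 9 were higher and 5 lower (14 and 4 with library totals), against 43.8% and 40.5% of all genes with TMM. *Clcf1*, another gp130 ligand, was at 6.60 ± 1.46 RPKM in tumor and 0.287 ± 0.131 RPKM in liver, and *Gdf11* at 1.498 ± 0.360 and 0.0522 ± 0.0377 RPKM. The hepatic activin subunits *Inhbc* and *Inhbe* were at 45.1 ± 12.2 and 43.2 ± 14.2 RPKM in pre-metastatic liver and at 0.0267 ± 0.0580 and 0.0295 ± 0.0515 RPKM in tumor. Between the livers 6 of 17 tested relatives rose and 0 fell, against 17.7% and 13.3% of all genes. Among the 6 were *Il33*, an alarmin of the IL-1 family, which rose from 0.544 ± 0.158 to 1.79 ± 0.587 RPKM, and *Tnfsf12* (TWEAK), from 8.37 ± 1.79 to 15.1 ± 2.08 RPKM.

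Genes that these cytokines are known to induce in hepatocytes mostly rose in the pre-metastatic liver. Of 24 acute-phase genes, 20 rose and 1 fell against control liver, where 17.7% of all genes rose and 13.3% fell. The median log2 fold change of the list was 1.35, against 0.01 for all genes. *Saa2* rose from 125 ± 197 to 4745 ± 3295 RPKM, *Orm2* from 26.2 ± 11.99 to 947 ± 586 RPKM, and *Fgb*, a fibrinogen chain, from 3733 ± 824 to 8929 ± 3121 RPKM, while *Hamp*, the iron hormone hepcidin, fell from 3294 ± 1479 to 494 ± 462 RPKM. *Saa1* and *Saa2* are near-identical and may share reads. Of 15 tested NF-kB response genes 9 rose and 0 fell, against the same 17.7% and 13.3% of all genes. *Cxcl1* rose from 8.83 ± 5.08 to 88.6 ± 38.0 RPKM and *Ccl2* from 0.440 ± 0.260 to 2.10 ± 0.831 RPKM.

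In tumor against pre-metastatic liver, 11 of 16 NF-kB response genes were higher and 4 lower (12 and 3 with library totals). Over all genes 43.8% were higher and 40.5% lower with TMM. *Ptgs2*, the inducible cyclooxygenase, was at 31.8 ± 15.3 RPKM in tumor and 0.0703 ± 0.0648 RPKM in liver, and *Cxcl2* at 10.3 ± 8.52 and 0.0611 ± 0.0367 RPKM. *Cxcl1* and *Sod2* were lower in tumor, by -4.85 ± 0.48 and -2.33 ± 0.10 on the log2 scale. The neutrophil chemokines *Cxcl1* and *Cxcl2*, at means of 7.08 and 10.3 RPKM in tumor, therefore differed in opposite directions from liver.

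Whether mice with more of a factor in the tumor had a stronger acute-phase response was asked over the 9 mice, with the summed RPKM of *Saa1* and *Saa2* and the RPKM of *Fgb* in the liver as readouts. Of 20 relations 0 had a Spearman *p* under 0.05 in exact permutation tests, and the smallest was that of tumor *Tnf* with liver *Fgb* (rho = -0.600, r = -0.461, exact *p* = 0.0968, adjusted *p* = 0.899). The relation of tumor *Il6* with liver *Fgb* was rho = -0.517 and r = -0.382 (exact *p* = 0.162), and with *Saa1* and *Saa2* rho = -0.283 and r = -0.166 (exact *p* = 0.463). Ranks centered within the clock phase gave rho = -0.818 for *Tnf* with *Fgb* (exact permutation *p* = 0.00833, adjusted *p* = 0.167). With 9 mice, a relation of moderate strength would not have been detectable.

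The tumors differed from each other most in *Pthlh* (10.2 times between the lowest and the highest), *Osm* (8.69 times), *Il1b* (7.07 times), and *Il11* (6.72 times), and least in *Inhba* (1.995 times) and *Lif* (2.03 times). Mouse M8 had the highest tumor level of *Il6*, *Lif*, *Il11*, *Pthlh*, and *Il1b*, and its *Il11* and *Pthlh* stood apart from the other tumors. Over 28 pairs of the 8 genes that reached 1 RPKM in 5 or more tumors, 4 had a Spearman *p* under 0.05 and 0 passed adjustment. *Osm* and *Il1b* came closest (rho = 0.833, r = 0.872, exact permutation *p* = 0.00827, adjusted *p* = 0.231), followed by *Lif* and *Osm* (rho = 0.767, r = 0.793, exact permutation *p* = 0.0214), and *Tnf* was in none of the 4. Without mice M1 and M4 the r of *Osm* and *Il1b* was 0.901.

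**Figure D4:**
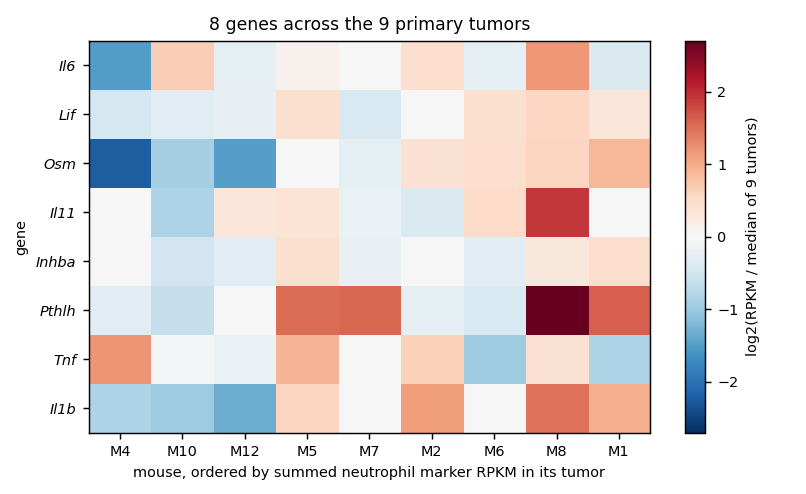
Level of 8 genes in the primary tumor of each of 9 mice as log2 of the RPKM over the median of the 9 tumors (color), with mice ordered by the summed neutrophil markers of the tumor. *Osm* passes from its lowest value in mouse M4 (0.806 RPKM) to its highest in mouse M1 (7.01 RPKM), and *Il11* and *Pthlh* peak in mouse M8.

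The same 8 genes were set beside 5 marker lists across the 9 tumors, 40 relations in all. *Osm* followed the summed level of 7 neutrophil markers, which ran from 9.78 RPKM in mouse M4 to 254 RPKM in mouse M1 (rho = 0.967, exact permutation *p* = 1.65e-04, adjusted *p* = 0.00661, and r = 0.927, exact permutation *p* = 4.63e-04). It was the 1 relation that passed adjustment. *S100a8* and *S100a9* made up most of the neutrophil marker sum, with tumor means of 31.2 and 50.0 RPKM, while *Csf3r* came next at 3.28 RPKM. With *S100a9* alone, *Osm* had rho = 0.967. Without mice M1 and M4, the ends of the *Osm* range, r was 0.861 (exact permutation *p* = 0.0141) and rho 0.929 (*p* = 0.00675), and with ranks centered within the clock phase rho was 0.967 (exact permutation *p* = 0.00243, adjusted *p* = 0.0972). *Il1b* with the same markers had rho = 0.783 and r = 0.820 (exact permutation *p* = 0.0172, adjusted *p* = 0.344). *Tnf* lay nearest to the leukocyte markers (rho = 0.667, r = 0.811, exact permutation *p* = 0.0589), and by Spearman no other relation of the 40 had a *p* under 0.05 besides those of *Osm* and *Il1b* with neutrophil markers.

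**Figure D5:**
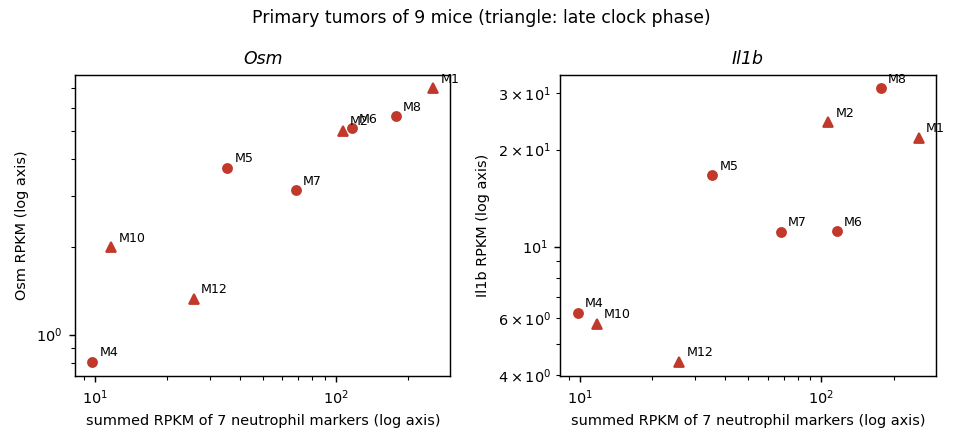
RPKM of *Osm* (left) and *Il1b* (right) against the summed RPKM of 7 neutrophil markers in the primary tumors of 9 mice (both axes log, triangles for the late clock phase). *Osm* rises with the markers from mouse M4 to mouse M1 (rho = 0.967), and *Il1b* follows more loosely (rho = 0.783). *S100a8* and *S100a9* make up most of the sum.

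The genes closest in pattern to each factor over the 9 tumors were sought among 12594 genes by Pearson r of log2(RPKM + 1), as a description without a test. For *Osm* they were *Ptgs2* (r = 0.931), *S100a9* (r = 0.929), which is itself a neutrophil marker, and *Parp6* (r = 0.926). For *Il1b* they were *Thbs1* (r = 0.962), *Clec4e* (r = 0.934), and again *Ptgs2* (r = 0.925). For *Tnf* they were *N4bp1* (r = 0.961), *Ch25h* (r = 0.946), and *Fyb* (r = 0.942). For *Pthlh*, *Upp1* (r = 0.943) and *Klf4* (r = 0.940) were among the closest. *Lif* was closest to the immediate-early genes *Csrnp1* (r = 0.9495) and *Egr1* (r = 0.941), *Il11* to *Prx* (r = 0.928) and *Cltb* (r = 0.919), *Inhba* to *Ptpn13* (r = 0.946) and *Pfkp* (r = 0.916), and *Il6* to *Abhd5* (r = 0.936) and *Snord57* (r = 0.910). These values were picked as the highest of many, and the 9 points share the clock phases and the cell content of the tumors.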

How the data were processed

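Poly(A) RNA-seq libraries of 5 control livers and of the pre-metastatic liver and primary tumor of 9 mice were used, 23 in all. For each gene the authors deposited raw counts and RPKM, which is the count divided by gene length and library total. All 46 columns were matched to samples by mouse and tissue. The submitters' processing notes name HISAT2, HTSeq 0.6.0, and mm10, without settings, and whether strand was used in counting is not given in the sources used here, so that antisense overlaps are named as uncertain. A library at 0 counts allows up to 3, and intervals cover counting error only.

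Counts were tested with edgeR 4.0.16 (limma 3.58.1, R 4.3.3) by its quasi-likelihood test with TMM factors, two-sided, with Benjamini-Hochberg adjustment over all genes that had at least 10 counts in as many libraries as the smaller group. The test was checked on simulated data. The SE of an edgeR log2 fold change is approximate, being the absolute change divided by the square root of its F statistic. The alternatives were DESeq2 1.42.0, limma-voom, other scalings, no filter, a joint fit, clock phases (6 clock genes), a mouse block, leaving out each library, and exact rank-sum tests on RPKM, with log2(RPKM + 1) where a difference is given. Exact tests and correlations used Python 3.11.15 and scipy 1.17.1. The 9 pairs come from the same animals, and deviations of a tumor and its own liver correlated at 0.0876 on average over 12453 genes, against -0.0111 for other mice. Replicates are separate mice. The members and lists were chosen with earlier results of these data known. Named list genes were, per comparison, at most 2 called genes each way with the largest change and a mean of at least 1 RPKM in 1 group, the receptors, *Saa1*, *Saa2*, and *Fgb*. The relations among members and with marker lists were added after the data were seen. 4 list genes were found under an older symbol. A gene of the pattern search is not reported here.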

Additional observations from a re-analysis of the deposited data

Results flagged for a closer look

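In 7 of 30 groups of a gene and a tissue, a library stood apart from the others of its group by Dixon's test. Its rate of about 1 of 20 groups by chance assumes normally distributed values. RPKM values, some of them at or near 0 counts, need not follow that, so that 7 of 30 is no measure of an excess. The *Gdf15* level of control mouse C5 was 22.2 RPKM, with the next control at 5.33 RPKM. In the primary tumor of mouse M8, *Il11* was at 27.5 RPKM and *Pthlh* at 30.7 RPKM, each the highest of the 9 tumors. The *Tnf* level in the liver of mouse M5 was 0.392 RPKM. The remaining 3 rest on few counts: *Lif* at 0.0102 RPKM in control mouse C5 (4 counts), and *Lif* at 0.0707 RPKM (26 counts) and *Il11* at 0.0790 RPKM (9 counts) in the liver of mouse M6.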

How the results depend on the processing

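Over the alternatives, the genes kept their direction and side of the threshold in 186 of 190 values for primary tumor against pre-metastatic liver, 218 of 220 for primary tumor against control liver, and 104 of 110 between the livers. *Inhba* in primary tumor against pre-metastatic liver turned from -0.69 to 0.51 with library totals and to 0.46 on log2(RPKM + 1), and *Socs3* from -0.51 to 0.69 and 0.68, since both alternatives use library totals. Between the livers, *Acvr2a* was at 0.012 in the early phase, and *Tnf*, within its error of 0, at -0.070 to 0.62 when a library was left out, below 0 without control mouse C4 or mouse M5. The number of members called lower between the livers, 1 in the fit, was 0 in the early phase, 0 by adjusted rank-sum test, and 0 to 1 when a library was left out (0 without control mouse C5). The number called lower in primary tumor against control liver, 2 in the fit, was 1 with library totals and 1 by adjusted rank-sum test, *Il1a* being lost. The 1 relation with marker lists that passed adjustment became 0 without the 2 outermost mice and 0 within clock phase, where fewer permutations exist. With the replicate block (mouse), *Inhba* was at -0.61 (adjusted *p* = 0.0434 with edgeR), and the block changed no call of the 10 genes. Depth limits *Il6*, *Lif*, *Osm*, *Il11*, and *Pthlh* in liver, where no library had over 26 counts.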
